A study of Mus musculus with 6 samples.

Results

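The protein-coding genes whose symbol starts with Kcn encode the subunits of the potassium channels. They were compared between whole hippocampal RNA and RNA caught with ribosomes tagged to enrich for microglia. Members were chosen by gene type and symbol alone, without any measured value. The deposited table held 74 such genes among 15388 genes in all. The GENCODE mouse release M21 annotation lists 94 protein-coding Kcn genes, and the other 20, among them Kcnq1, Kcnmb1 and Kcnk5, were not analysed here. All 74 members passed the filter on low values, which asks that all libraries of either fraction exceed 20 scaled reads.

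Potassium channels let potassium leave the cell and so set the resting potential and end the action potential. Voltage-gated (Kv) channels open on depolarization and carry beta, KChIP and KCNE auxiliary subunits, calcium-activated channels (BK, SK and their relatives) open when calcium rises, inward rectifiers (Kir) hold the resting potential, and K2P channels give a steady leak. In hippocampus most of this family is known from neurons, Kir channels also from astrocytes, and microglia are known for a small set of leak, inwardly rectifying and calcium-activated potassium channels that take part in membrane potential, process surveillance and inflammasome activation.

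All 6 libraries came from mice of the genotype Cx3cr1-Cre/Ert2+; NuTRAP+ that had been given tamoxifen at about 3 months of age. In them Cre, expressed from the Cx3cr1 promoter, switches on a GFP-tagged ribosomal protein, and Cx3cr1 is known to be active in brain border macrophages as well as in microglia. Input is the cleared homogenate of the hippocampi of an animal, and Positive is the RNA on ribosomes of the same animal caught by an antibody against GFP (translating ribosome affinity purification, TRAP). Animals 201, 207 and 208 each gave 1 Input and 1 Positive library (n = 3 per fraction), and there was no control without Cre or antibody among the libraries used here. A gene that is lower in Positive takes a smaller part of the Positive reads, and in such bulk RNA fewer contributing cells of a type and less RNA per cell cannot be told apart.

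Libraries held between 14879734 and 17757918 reads. The labelled cell type was checked on 10 defining microglial genes, and 10 of 10 were higher in Positive with a median log2 fold change of 4.63. Cx3cr1 and P2ry12 had log2 fold changes of 4.77 and 4.80. All 6 border macrophage markers were higher too (median 4.17), as were 10 of 10 endothelial markers (median 1.88). The median was -0.42 for astrocyte markers (3 higher and 85 lower of 138), -0.78 for oligodendrocyte markers (10 higher and 137 lower of 186), -1.67 for oligodendrocyte precursor markers (6 of 6 lower), and -0.01 for neuronal markers (22 higher and 18 lower of 99). The Positive library of animal 208 stood somewhat apart, with medians of -0.72 for astrocyte and -0.94 for mural markers against -0.36 to -0.25 and 0.14 to 0.20 in the other animals. The endothelial median was 1.09 in animal 208, against 2.19 in animal 201 and 2.15 in animal 207.

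Of the 74 Kcn genes, 8 were higher and 20 lower in Positive (edgeR quasi-likelihood test, adjusted p under 0.05 over all 15343 genes tested), and 46 did not pass the test. The 28 called members are 37.8% of the family, where 46% of all genes tested were called. The share called higher was 10.8% against a background of 24%, and the share called lower was 27% against a background of 22%. All 28 moved in the same direction in each of the 3 animals, and 15 of them were called under all 13 alternative settings. Kcnn4 and Kcng4 were called in each of the settings that tested them, their means being too low for the strictest filter. The animals and settings draw on the libraries that made the calls, so they are no independent check. The matching shares over all called genes were not computed. Of the called members, 3 (Kcnn4, Kcne2 and Kcne1l) passed the filter on low values only through the fraction in which they were higher. Without the Input library of animal 207 the members called lower numbered 13, and without the Positive library of animal 208 they numbered 24. Over all genes, 5552 and 7260 were called in these settings, against 7053 in the main fit. With libraries scaled to their total count instead of median-of-ratios scaling, 6 members were higher and 27 lower. Of the called members 18.2% were then higher in place of 28.6%, and of all called genes 41.6% in place of 52.2%.

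The median log2 fold change over the members was -0.14, against -0.01 over all genes tested and 0.02 over protein-coding genes. Per animal the member median was -0.25 in animal 201, -0.16 in animal 207 and 0.00 in animal 208 (mean -0.14 ± 0.12, SD, n = 3). As a share of all reads, the members together made up 0.563% ± 0.004 of the Input libraries and 0.507% ± 0.038 of the Positive libraries (SD, n = 3). The exact permutation test on this share ignored the pairing by animal. It gave a two-sided p of 0.1, which is the smallest that 3 unpaired libraries against 3 allow.

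By class, the K2P channels split into 3 higher and 3 lower of 9. The inward rectifiers had 1 higher and 2 lower of 12, with a median of -0.17. The calcium- or sodium-activated channels with their beta subunits had 1 higher and 4 lower of 10, with a median of -0.35. The voltage-gated channels and their auxiliary subunits had 3 higher and 11 lower of 43, with a median of -0.06. Pore-forming subunits (6 higher and 16 lower of 62) and auxiliary subunits (2 higher and 4 lower of 12) had medians of -0.12 and -0.23.

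**Figure D1:**
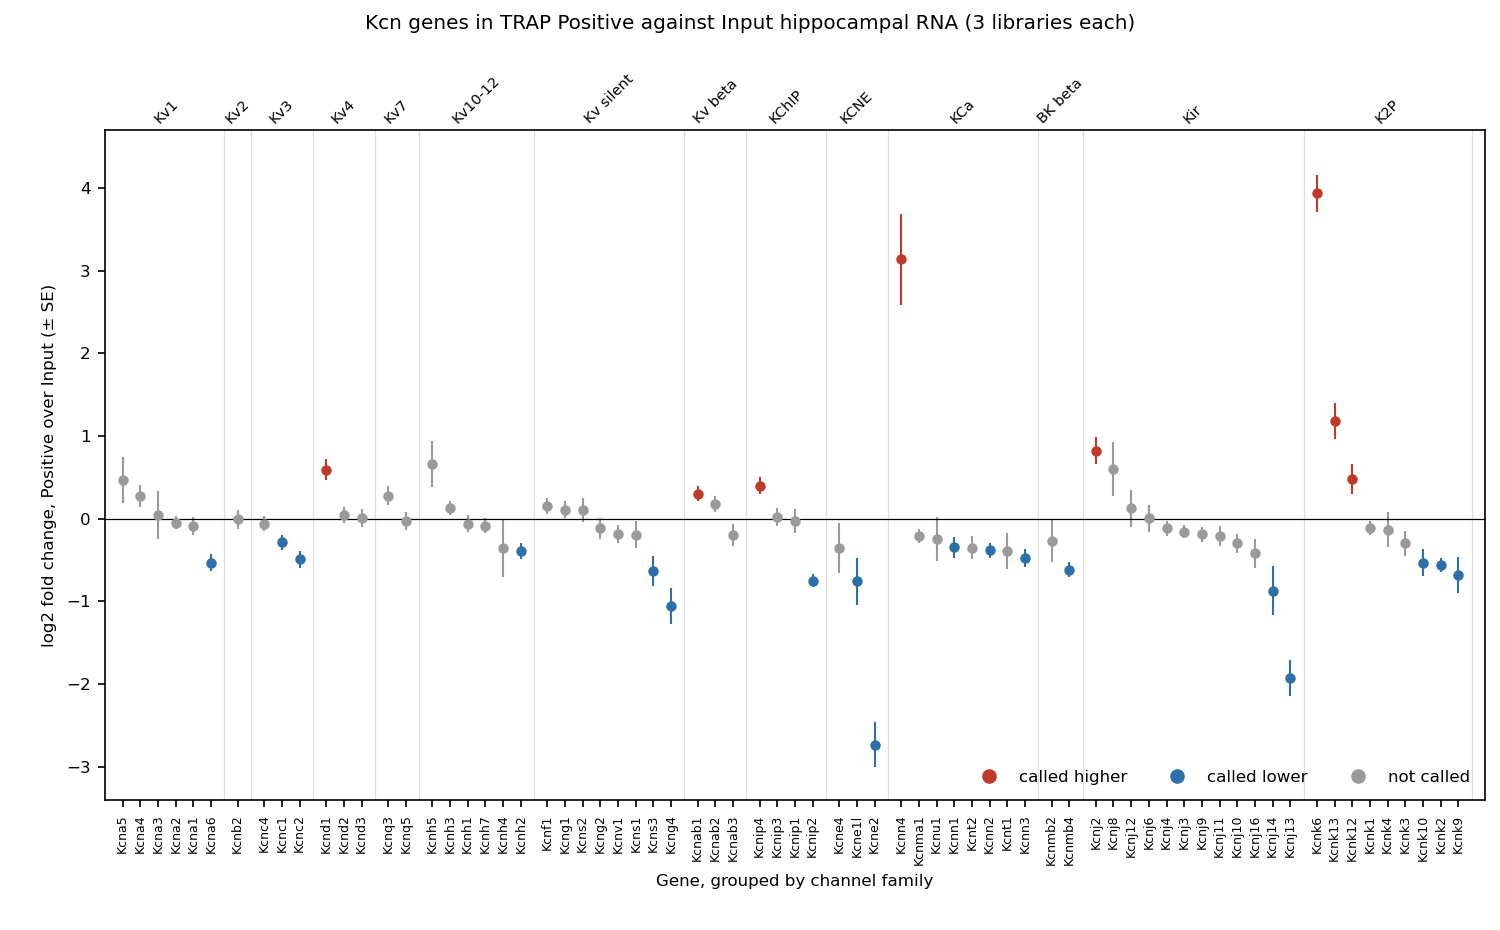
The log2 fold change of Positive over Input (vertical axis) is plotted for 70 of the 74 Kcn genes (horizontal axis, grouped by channel family), with bars of ± 1 SE from the edgeR fit on 3 libraries per fraction and colour for the call. Most points lie between -1 and 1, while Kcnk6 and Kcnn4 stand above 3 and Kcne2 and Kcnj13 lie near -2.74 and -1.92.

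Promoter sequences are given for Kcnk13 and Kcnn4, higher in Positive, and for Kcne2 and Kcnj13, lower in Positive, since these 4 genes carry the largest changes among the members with a RefSeq promoter here. Each run is the 250 bases before the RefSeq transcription start (GRCm38.p6, the assembly of mm10), read 5′ to 3′ on the strand of the gene, with any match to the 3 motifs searched in capitals. The motifs were the core GAGGAA bound by PU.1, a master regulator of myeloid genes, the AP-1 site TGACTCA and the E-box CACGTG, each on either strand. Kcnk13 lies at chr12:99964249-99964498 (plus strand), Kcnn4 at chr7:24370013-24370262 (plus strand), Kcne2 at chr16:92292139-92292388 (plus strand) and Kcnj13 at chr1:87394730-87394979 (minus strand).
Kcnk13: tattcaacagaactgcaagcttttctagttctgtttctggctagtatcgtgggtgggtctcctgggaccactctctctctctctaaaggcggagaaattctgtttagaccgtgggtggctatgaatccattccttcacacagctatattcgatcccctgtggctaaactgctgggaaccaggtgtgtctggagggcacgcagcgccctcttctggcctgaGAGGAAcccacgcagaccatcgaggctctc
Kcnn4: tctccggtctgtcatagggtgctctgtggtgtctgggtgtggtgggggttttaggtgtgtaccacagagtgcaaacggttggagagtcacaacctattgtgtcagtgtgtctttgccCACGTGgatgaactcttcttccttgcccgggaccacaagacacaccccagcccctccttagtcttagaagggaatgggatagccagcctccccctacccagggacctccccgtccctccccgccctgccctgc
Kcne2: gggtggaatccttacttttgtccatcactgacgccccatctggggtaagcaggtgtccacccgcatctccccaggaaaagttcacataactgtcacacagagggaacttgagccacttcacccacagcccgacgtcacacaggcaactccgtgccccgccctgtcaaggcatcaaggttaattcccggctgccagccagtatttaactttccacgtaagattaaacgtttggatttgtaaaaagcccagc
Kcnj13: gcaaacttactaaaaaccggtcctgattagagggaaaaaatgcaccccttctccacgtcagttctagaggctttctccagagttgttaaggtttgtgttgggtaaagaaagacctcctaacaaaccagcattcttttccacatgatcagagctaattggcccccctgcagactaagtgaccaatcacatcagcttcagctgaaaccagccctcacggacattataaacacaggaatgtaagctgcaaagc

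The capitals in Kcnk13 are a GAGGAA that begins 30 bases before the start, and those in Kcnn4 are a CACGTG that begins 133 bases before it. In windows of 300 bases, which add the 50 bases after the start, GAGGAA was found in 17 of the 52 members with a promoter in the table (32.7%) and in 28.3% of all 32851 promoters listed, where a gene may have several starts. It was in 4 of 6 higher members (Kcnab1, Kcnj2, Kcnk12 and Kcnk13), in 4 of 15 lower members and in 9 of 31 that were not called. The higher members Kcnk6 and Kcnd1 had no promoter listed. For each member only the first listed start was used. The Kcnab1 window (chr3:64948962-64949261) lies well upstream of the deposited gene start at 65109384. The window of the higher member Kcnip4 (chr5:49285610-49285909) lies well inside its gene, which starts at 49524907 on the minus strand. Those of Kcnh2 and Kcnj12, among others, also lie inside their genes, so the motif counts rest partly on such displaced windows. CACGTG was in 4 of 52 members (7.69%) and 7.15% of all promoters, and TGACTCA in 1 of 52 (1.92%) and 5.2%. A match is a run of letters and not a measured binding site.

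Among the K2P channels, Kcnk6 had the largest change of the whole family. Kcnk6 (chromosome 7, 29221926 to 29232515, minus strand, mm10) encodes TWIK2, a leak channel known for the potassium efflux that precedes inflammasome activation in macrophages. It had 106.1, 57.3 and 78.7 scaled reads in Input of animals 201, 207 and 208 and 1098, 1625 and 978.3 in Positive. Every Positive library was thus far above every Input library, and the log2 fold change was 3.94 ± 0.22 (SE, edgeR adjusted p = 1.73e-08), 15.3 times the Input level. Kcnk6 is also the only member in the study's lists of microglial markers, from cell sorting and from ribosomal tagging.

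Kcnk13 (chromosome 12, 99964499 to 100062682, plus strand) encodes THIK1, the leak channel known to hold the resting potential of microglia. It had 88.7, 129.7 and 86.0 scaled reads in Input and 181.3, 302.3 and 207.7 in Positive. The ranges did not overlap, and the level in Positive was 2.27 times that in Input (log2 fold change 1.18 ± 0.22, SE, edgeR adjusted p = 0.000825). Its nearest relative Kcnk12 (THIK2) had 139.7, 154.1 and 153.1 scaled reads in Input and 183.3, 176.7 and 264.8 in Positive. Kcnk12 passed the test narrowly (0.48 ± 0.18, edgeR adjusted p = 0.0399), and the call was lost without the Positive library of animal 208 (0.27, adjusted p = 0.156) and without any one of the Input libraries (adjusted p = 0.0825 to 0.114). It was lost as well with total count scaling (0.40, adjusted p = 0.0759) and with limma on the deposited values (0.44, adjusted p = 0.0679).

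The 3 lower K2P channels were the mechanosensitive pair Kcnk2 and Kcnk10 (TREK1 and TREK2) and the acid-sensitive Kcnk9 (TASK3). Kcnk2 had 910.4 to 977.2 scaled reads in Input and 610.1 to 682.8 in Positive (-0.56 ± 0.09, SE, edgeR adjusted p = 0.000188). Kcnk10 had 165.2 to 214.2 and 119.5 to 145.4 (-0.53 ± 0.16, adjusted p = 0.0168), and Kcnk9 had 104.0 to 146.8 and 60.8 to 100.7 (-0.68 ± 0.22, adjusted p = 0.0233). The Kcnk2 call held under every alternative. Those of Kcnk10 and Kcnk9 were lost in several leave-outs, for Kcnk10 without Input 207 or 208 or Positive 201 (adjusted p = 0.0507 to 0.0875) and for Kcnk9 without Input 207 or 208 or Positive 201 or 207 (0.0608 to 0.102). Kcnk1, the K2P gene with the most reads per kb of exon, had a log2 fold change of -0.11 (adjusted p = 0.279). Kcnk4 shares 13.15% of its exon length with Catsperz on the same strand, so that its value of -0.13 is uncertain.

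Among the calcium-activated channels, Kcnn4 was the only higher member. Kcnn4 (chromosome 7, 24370263 to 24386690, plus strand) encodes KCa3.1, the intermediate-conductance channel known from microglia and lymphocytes rather than from most neurons. It had 2, 8 and 0 raw reads in Input of animals 201, 207 and 208, and 28, 37 and 26 in Positive. Positive was above Input in each animal, with a log2 fold change of 3.14 ± 0.55 (SE, edgeR adjusted p = 0.000516), but the size of the change rests on few reads and was 4.71 without the Input library of animal 207. Among whole values of 1 read or more and under 60 reads, 64.7% to 69.3% per library were even, as were most of the Kcnn4 values, so these reads may be fewer independent fragments if both mates of a pair were counted. Kcnk6 and Kcnn4 were the only members over 5-fold higher, 2.7% of the members against a background of 3.75% of all genes tested, and Kcnn4 could enter this count only through Positive, since its Input reads were under the filter. Per kb of exon, Kcnn4 was the lowest of the 74 members in both fractions (0.623 ± 0.76 and 5.88 ± 0.75 scaled reads per kb, SD, n = 3).

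The 3 small-conductance (SK) channels, which give neurons an afterhyperpolarizing current after spikes, were all lower. Kcnn3, which is on the astrocyte list from cell sorting, had 376.4, 355.2 and 370.2 scaled reads in Input and 275.0, 259.5 and 257.6 in Positive (-0.48 ± 0.11, SE, edgeR adjusted p = 0.00425). Kcnn2 had 714.3 to 741.6 in Input and 538.6 to 585.7 in Positive (-0.38 ± 0.09, adjusted p = 0.00349). Neither pair of ranges overlapped, and both calls held under every alternative. Kcnn1 was lower by a similar size (-0.35 ± 0.13, adjusted p = 0.0456), and its call was lost without Input 201 or 207 or Positive 201 or 207 (adjusted p = 0.0939 to 0.152).

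For the large-conductance BK channel, the neuronal beta subunit Kcnmb4 was lower and the pore Kcnma1 was not called. Kcnmb4 had 898.7, 886.1 and 965.0 scaled reads in Input and 564.4, 593.3 and 636.6 in Positive (-0.62 ± 0.09, SE, edgeR adjusted p = 0.000106), and the call held under every alternative. Part of its exons (20.85%) lies opposite the antisense gene Kcnmb4os2, and counting used strand. Kcnma1 had 4009, 4028 and 3957 in Input and 3083, 3576 and 3713 in Positive (-0.21, adjusted p = 0.0557). Kcnma1 passed in 4 of 13 alternatives, among them the animal as replicate block (-0.21, adjusted p = 0.0378), total count scaling (-0.29, adjusted p = 0.0112) and DESeq2 (-0.21, adjusted p = 0.0487). Kcnmb2 had a log2 fold change of -0.27 (adjusted p = 0.412). Of 5 further BK auxiliary genes listed, the 2 in the table, Lingo1 (-0.04) and Lrrc55 (0.21), were not called.

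The sodium-activated channel Kcnt1 differed between animals in both fractions. It had 1571, 915.2 and 942.9 scaled reads in Input and 1132, 880.7 and 598.2 in Positive, so that animal 201 was highest in each. Input and Positive ranges overlapped and the unpaired test did not call it (-0.39 ± 0.22, edgeR adjusted p = 0.163). With the animal as replicate block the adjusted p was 0.0054 at the same log2 fold change. Without the Input library of animal 201 the unpaired value was -0.09 (adjusted p = 0.738), and without the Positive library of animal 208 it was -0.18 (adjusted p = 0.441). Its relative Kcnt2 had -0.35 ± 0.14 (adjusted p = 0.0544). Kcnt2 passed in 4 of 13 alternatives, among them the replicate block (-0.34, adjusted p = 0.0325) and total count scaling (-0.43, adjusted p = 0.0219).

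Among the inward rectifiers, Kcnj2 was higher and Kcnj13 and Kcnj14 were lower. Kcnj2 encodes Kir2.1, the inward rectifier described in cultured microglia and also found in neurons and endothelium. It had 112.2, 105.2 and 99.6 scaled reads in Input and 157.6, 200.9 and 203.6 in Positive. The ranges did not overlap and the level in Positive was 1.77 times that in Input (log2 fold change 0.83 ± 0.17, SE, edgeR adjusted p = 0.00135). Kcnj14 (Kir2.4) had 39.8, 47.0 and 54.5 scaled reads in Input and 36.0, 20.5 and 20.8 in Positive (-0.87 ± 0.29, adjusted p = 0.0281). The Kcnj14 call was lost without Input 207 or 208 or Positive 207 or 208 (adjusted p = 0.0632 to 0.104).

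The largest falls of the family were in Kcne2 and Kcnj13, both known as channel genes of the choroid plexus, the secretory epithelium of the ventricles. Kcne2 (chromosome 16, 92292389 to 92298129, plus strand) encodes a single-pass auxiliary subunit of Kv channels and had 276.4, 176.7 and 225.5 scaled reads in Input and 45.3, 37.2 and 18.7 in Positive. Kcnj13 (chromosome 1, 87386363 to 87394729, minus strand) encodes Kir7.1 and had 213.2, 173.8 and 194.0 in Input and 69.0, 45.6 and 38.4 in Positive. In both genes every Positive library was below every Input library, at 15.0% of the Input level for Kcne2 (log2 fold change -2.74 ± 0.27, SE, edgeR adjusted p = 3.86e-06) and 26.4% for Kcnj13 (-1.92 ± 0.22, adjusted p = 1.3e-05). Of the Kcnj13 exon length, 49.06% lies opposite Gigyf2, and counting used strand.

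Markers of choroid plexus moved with this pair. A list of 14 such markers, written after the values of Kcne2 and Kcnj13 had been seen, was lower in 14 of 14 genes, with a median log2 fold change of -1.74 and medians of -1.81, -1.50 and -2.10 in animals 201, 207 and 208. Its summed level was 29930 to 40420 scaled reads in the Input libraries and 7791 to 9474 in the Positive libraries. Transthyretin (Ttr) had a log2 fold change of -2.21, Folr1 -2.11 and Clic6 -2.08. In Input, the library of animal 207 was lowest of the 3 for Kcne2, Kcnj13, Ttr, Folr1 and Clic6. This order did not hold for all listed markers. In animals 201, 207 and 208, Wdr86 had 166.3, 170.1 and 160.5 scaled reads in Input, and Cldn2 had 282.6, 214.2 and 201.4. What part choroid plexus in the dissected tissue had in the values of Kcne2 and Kcnj13 was not tested.

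**Figure D2:**
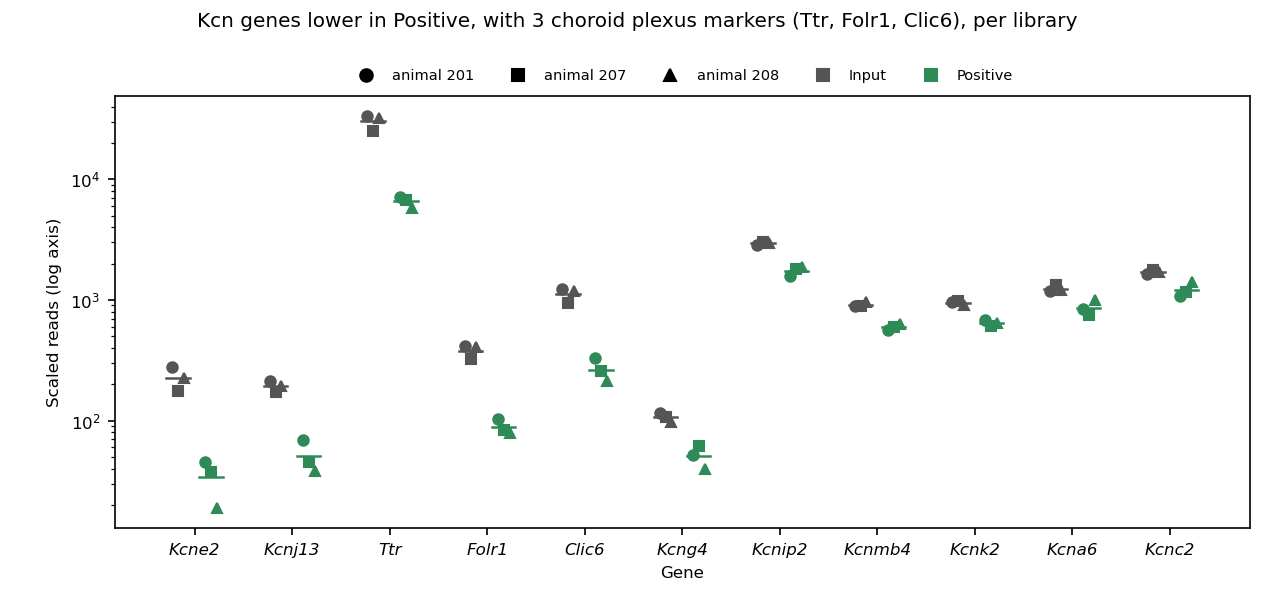
Scaled reads (vertical axis, log scale) in each library are plotted for 8 Kcn genes lower in Positive and for the choroid plexus markers Ttr, Folr1 and Clic6 (horizontal axis), with grey for Input, green for Positive, a symbol per animal and bars at the mean of 3 libraries. The 3 Positive values lie below the 3 Input values for each gene, and the gap is widest for Kcne2, Kcnj13 and the 3 markers.

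The 2 other KCNE genes in the table were low in both fractions. Kcne1l had 40.8, 53.6 and 48.3 scaled reads in Input and 28.8, 36.3 and 18.7 in Positive (-0.76 ± 0.29, SE, edgeR adjusted p = 0.0455), having passed the filter only through Input, and its call was lost without Input 201, 207 or 208 or Positive 201 or 208 (adjusted p = 0.0539 to 0.147). Kcne4 had a log2 fold change of -0.35 (adjusted p = 0.354).

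Kcnj10 and Kcnj16 encode Kir4.1 and Kir5.1, which form the potassium-buffering channel of astrocytes, and Kcnj10 was one of the study's qPCR genes. Kcnj10 had 2638, 2203 and 2270 scaled reads in Input and 2145, 2089 and 1563 in Positive. The ranges did not overlap but the unpaired test did not call it (-0.29 ± 0.12, SE, edgeR adjusted p = 0.053). It passed in 5 of 13 alternatives, among them the animal as replicate block (-0.30, adjusted p = 0.0101), total count scaling (-0.37, adjusted p = 0.0194) and DESeq2 (adjusted p = 0.0397). Kcnj16 had 400.9, 333.6 and 358.7 in Input and 334.7, 293.9 and 188.0 in Positive. Its edgeR adjusted p was 0.0728 unpaired, 0.0212 with the replicate block and 0.0389 with total count scaling, and it passed in 3 of 13 alternatives. Both were lowest in the Positive library of animal 208, where the astrocyte marker median was lowest as well. What part astrocyte RNA had in the values of Kcnj10 and Kcnj16 was not tested.

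Kcnj8, which encodes the pore of the ATP-sensitive channel of pericytes, had 40.8, 47.0 and 31.5 scaled reads in Input and 92.7, 52.1 and 37.4 in Positive. Ranges overlapped and it was not called (0.60 ± 0.33, SE, edgeR adjusted p = 0.147), but without the Positive library of animal 208 it passed (0.85, adjusted p = 0.0278), and without that of animal 201, the highest, it had 0.17 (adjusted p = 0.684). The summed level of 10 mural cell markers ran from 2998 to 3170 in Input and from 2046 to 4039 in Positive, with animal 208 lowest, and their median log2 fold change was -0.28 (1 higher, 0 lower). What part mural cells had in the Kcnj8 values was not tested. Of the sulfonylurea receptors, which are subunits of ATP-sensitive channels, Abcc9 had -0.21 (adjusted p = 0.626) and the neuronal Abcc8 was lower (-0.31, adjusted p = 0.0321). The G-protein-gated channels of neurons were not called, with -0.16 for Kcnj3, 0.00 for Kcnj6 and -0.19 for Kcnj9, nor were the neuronal Kcnj4 (-0.12) and the other inward rectifiers Kcnj11 (-0.21) and Kcnj12 (0.13).

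**Figure D3:**
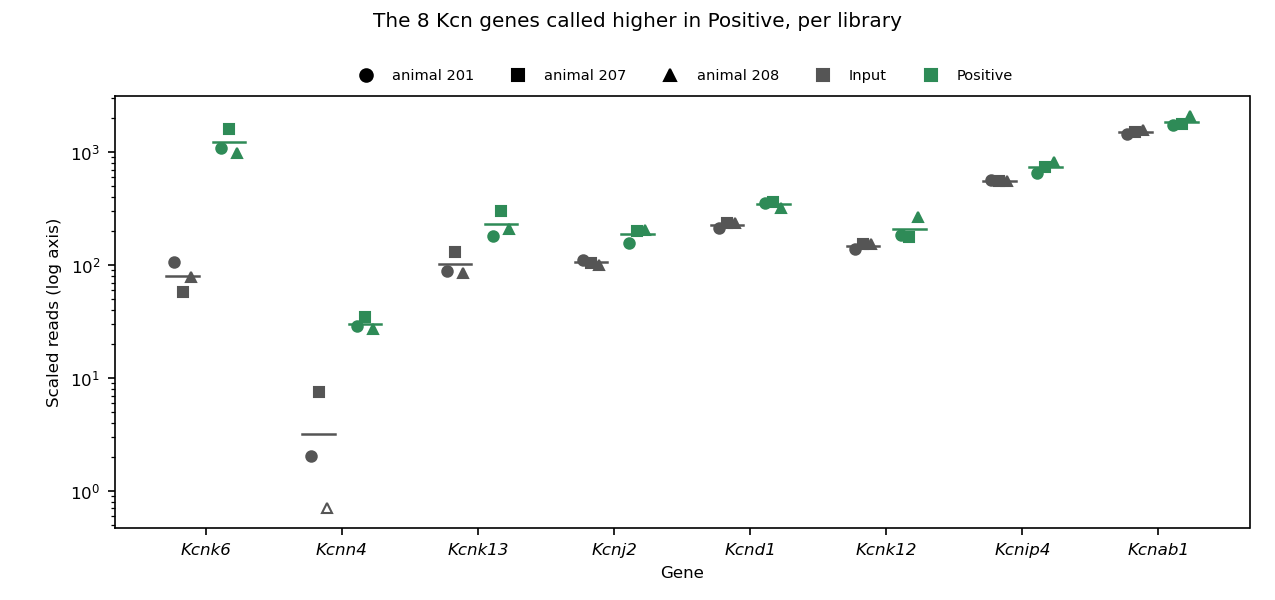
Scaled reads (vertical axis, log scale) in each library are plotted for the 8 Kcn genes called higher in Positive (horizontal axis), with grey for Input, green for Positive, a symbol per animal and bars at the mean of 3 libraries; the open triangle for Kcnn4 marks Input of animal 208 at 0 reads, drawn at the foot of the axis. The 3 Positive values lie above the 3 Input values for every gene, by 15.3 times for Kcnk6 and by 1.23 times for Kcnab1.

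Among the voltage-gated pores, Kcnd1 was the only higher member. Kcnd1 encodes Kv4.1, the least abundant of the Kv4 channels that carry the A-type current of dendrites. It had 214.2, 235.9 and 234.9 scaled reads in Input and 353.2, 363.6 and 317.8 in Positive. The ranges did not overlap and the Positive level was 1.51 times Input (log2 fold change 0.59 ± 0.12, SE, edgeR adjusted p = 0.00163). The neuronal Kv4 genes Kcnd2 and Kcnd3 had 0.04 and 0.01 (adjusted p = 0.727 and 0.951).

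The KChIP genes, calcium-binding auxiliary subunits of the Kv4 channels, moved in opposite directions. Kcnip2 was the second most abundant member per kb in Input and had 2840, 3005 and 2987 scaled reads in Input and 1584, 1798 and 1875 in Positive. It stood at 59.5% of the Input level (log2 fold change -0.75 ± 0.08, SE, edgeR adjusted p = 9.41e-06). Kcnip4, on the neuron list from cell sorting, had 569.2, 560.0 and 551.7 in Input and 659.1, 734.7 and 824.6 in Positive, a smaller change upward (0.40 ± 0.10, adjusted p = 0.00583). In neither did the ranges overlap, and both calls held under every alternative. Kcnip3 and Kcnip1 had 0.02 and -0.03. Of 5 other auxiliary genes of Kv4 and Kv2 channels, Amigo2 (-0.89, adjusted p = 6.66e-05) and Amigo1 (-0.25, adjusted p = 0.022) were lower and 0 were higher, and Dpp6 had 0.04.

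The Kv1 channels set spike threshold at axons, and of 6 genes Kcna6 was lower and 5 were not called. Kcna6 had 1178, 1325 and 1210 scaled reads in Input and 834.2, 745.9 and 991.8 in Positive (-0.53 ± 0.11, SE, edgeR adjusted p = 0.00121), a call that held under every alternative. Of the Kcna6 exon length, 39.61% lies opposite Gm26673, and counting used strand. Kcna2 had -0.05 (adjusted p = 0.646), and Kcna1, on the oligodendrocyte list from cell sorting, had -0.09 (adjusted p = 0.51). Kcna3, which encodes Kv1.3, a channel known from activated microglia and lymphocytes, had 35.7, 41.3 and 52.4 scaled reads in Input and 39.1, 33.5 and 61.3 in Positive. Its ranges overlapped widely and its log2 fold change was 0.04 ± 0.29 (adjusted p = 0.913). Kcna5 and Kcna4 had 0.47 and 0.27 (adjusted p = 0.18 and 0.104).

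The Kv beta subunits bind Kv1 channels from the cytoplasm, and Kcnab1 was higher. It had 1462, 1521 and 1574 scaled reads in Input and 1736, 1767 and 2113 in Positive (0.30 ± 0.09, SE, edgeR adjusted p = 0.0147), and the call was lost without the Input library of animal 201 (adjusted p = 0.0565) or 207 (0.0503) and with total count scaling (0.22, adjusted p = 0.0509). Kcnab2 was the most abundant member per kb in both fractions, with 12850, 12830 and 13450 scaled reads in Input and 14360, 12960 and 16990 in Positive. It was not called (0.18, adjusted p = 0.168), nor was Kcnab3 (-0.20, adjusted p = 0.25). A list of 12 genes that cluster Kv1 channels on axons had 1 higher and 6 lower of 13 entries, since Dlg2 was listed under 2 gene identifiers. Cntn2 (-1.02), Lgi4 (-0.59), Lgi3 (-0.54) and Adam22 (-0.40) were among the lower and Dlg2 (0.27) was the higher.

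Kcnb2, a Kv2 gene of the neuronal delayed rectifier and among the neuronal genes of the study's qPCR panel, was not called. It had 333.6, 345.8 and 366.1 scaled reads in Input and 313.1, 379.4 and 345.8 in Positive, with overlapping ranges and a log2 fold change of -0.01 ± 0.12 (SE, edgeR adjusted p = 0.959). By qPCR on brain, a larger dissection than hippocampus, the study reported both Kcnb2 and Kcnj10 as depleted in the positive fraction. The silent subunits, which make no channel alone and modify Kv2, had 0 higher and 2 lower of 8. Kcng4 had 116.3, 106.2 and 96.5 scaled reads in Input and 51.5, 61.4 and 39.5 in Positive, at 48.0% of Input (-1.06 ± 0.22, adjusted p = 0.00165). Kcns3 had 151.0 to 153.1 in Input and 75.2 to 111.1 in Positive (-0.63 ± 0.18, adjusted p = 0.0137), and its call was lost without the Positive library of animal 201 (-0.47, adjusted p = 0.0529). Kcnf1 and Kcng1 had 0.15 and 0.11.

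The Kv3 channels allow fast spiking, and Kcnc1 and Kcnc2 were lower. Kcnc2, on the neuron list from cell sorting and known from parvalbumin interneurons, had 1634, 1770 and 1714 scaled reads in Input and 1077, 1157 and 1403 in Positive (-0.49 ± 0.10, SE, edgeR adjusted p = 0.00126). Kcnc1 had 3415 to 3792 in Input and 2685 to 3307 in Positive (-0.29 ± 0.09, adjusted p = 0.0208), and was lost without Input 201 or 207 or Positive 201 or 207 (adjusted p = 0.0519 to 0.0871). Kcnc4 had -0.06. The 11 interneuron markers had 6 higher and 1 lower, with a median of 0.34, and the lower marker was Pvalb itself, which had 559.0, 873.9 and 669.2 scaled reads in Input and 174.0, 205.5 and 118.4 in Positive (-2.07 ± 0.20, adjusted p = 2.54e-06). What part parvalbumin interneurons had in the values of Kcnc1 and Kcnc2 was not tested. The 8 hippocampal principal cell markers had 3 higher and 2 lower, with a median of 0.07. Of the 6 members on the neuron list from cell sorting, Kcnip4 was higher, Kcnc2 was lower, and Kcnip1, Kcnh7, Kcnb2 and Kcnq5 were not called, with a median of -0.03.

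Among the Kv7 channels, which carry the M-current that restrains firing, Kcnq3 had 2592, 2709 and 2889 scaled reads in Input and 2599, 3714 and 3615 in Positive. Positive of animal 201 lay within the Input range and the other Positive libraries lay above it, and the unpaired test did not call it (0.28 ± 0.12, SE, edgeR adjusted p = 0.069), while it passed with the animal as replicate block (0.26, adjusted p = 0.022). Kcnq5 had -0.03 (adjusted p = 0.862). Of the Kv10 to Kv12 group, Kcnh2 (ERG1) was lower, with 622.0 to 670.2 scaled reads in Input and 458.5 to 508.7 in Positive (-0.39 ± 0.09, adjusted p = 0.0047), a call that held under every alternative. Kcnh3 had 0.13 and Kcnh5 0.66 ± 0.28 (adjusted p = 0.0738).

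The values of the 3 Positive and 3 Input libraries did not overlap in 32 of the 74 members (43.2%), against 56.4% of all genes tested. These were the 28 called members together with Kcnma1, Kcnj10, Kcnj3 and Kcna5. Some members that were not called passed the edgeR test when 1 library was left out. Without the Positive library of animal 208, Kcnj11 (-0.37, adjusted p = 0.00901), Kcnma1 (-0.26, adjusted p = 0.0117), Kcnj9 (-0.26, adjusted p = 0.0205), Kcnj3 (-0.22, adjusted p = 0.0213), Kcnt2 (-0.41, adjusted p = 0.0311) and Kcns1 (-0.39, adjusted p = 0.0421) were lower. Without the Positive library of animal 201, Kcnq3 (0.42, adjusted p = 0.0015) was higher and Kcnj16 (-0.59, adjusted p = 0.0203), Kcnj10 (-0.38, adjusted p = 0.026), Kcnt1 (-0.63, adjusted p = 0.0323) and Kcnab3 (-0.36, adjusted p = 0.0326) were lower. Without the Positive library of animal 207, Kcnh5 (0.84, adjusted p = 0.0413) was higher and Kcnj10 (-0.35, adjusted p = 0.0493) was lower. Kcna4 was higher without Input 201 (0.40, adjusted p = 0.0342), and Kcnt2 was lower without Input 207 (-0.47, adjusted p = 0.0249). In the other leave-outs these members were not called.

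A group of 16 members was neither called nor named by the rule, and it also left out some members picked with their values known. In these 16, log2 fold changes ran from -0.36 to 0.47, with a median of -0.14. Of the members so left out, Kcnj16 (-0.42), Kcnj8 (0.60) and Kcnh5 (0.66) lay outside this range, and Kcnt2 (-0.35) and Kcna3 (0.045) lay within it.

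Levels between members were compared as scaled reads per kb of exon. Those in Positive are levels in the captured RNA as a whole and not in microglia alone. In it the summed level of the neuronal markers was 359100 to 407500 scaled reads per library, against 398000 to 408500 in Input. In Input the highest were Kcnab2 (2339 ± 63.7), Kcnip2 (847 ± 26.1), Kcnj4 (726 ± 42.5) and Kcnj9 (653 ± 27.2) (SD, n = 3), and Kcnk1 (552 ± 27.8) was lower than these. In Positive the highest were Kcnab2 (2648 ± 367), Kcnj4 (671 ± 67.4) and Kcnj9 (574 ± 67.4), with Kcnk1 (511 ± 26.5) and Kcnip2 (504 ± 43.3) below them and within 1 SD of each other. Kcnk6 was the member that moved furthest in this order, from rank 63 with 19.4 ± 5.89 in Input to rank 17 with 297 ± 82.9 in Positive. Kcne2 moved from rank 35 (128 ± 28.2) to rank 62 (19.1 ± 7.72), and Kcnj13 from rank 30 (153 ± 15.5) to rank 49 (40.2 ± 12.6). Kcnk13 moved from rank 55 (32.6 ± 7.86) to rank 43 (74.04 ± 20.4). Exon length counts all annotated exons of a gene, so a gene that uses few of them has a level that is too low.

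**Figure D4:**
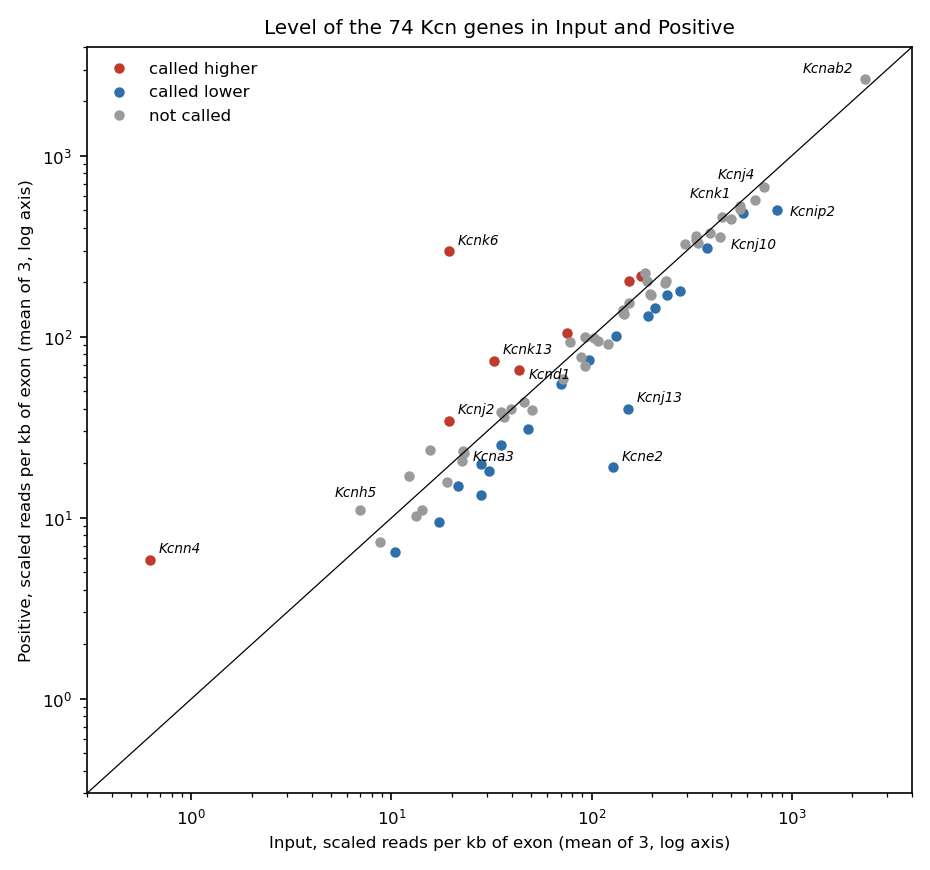
Scaled reads per kb of exon in Positive (vertical axis) are plotted against Input (horizontal axis) for the 74 Kcn genes, each a mean of 3 libraries on log axes, with the diagonal of equal level and colour for the call. Most members lie close to the diagonal, Kcnk6 and Kcnn4 stand above it at 297 against 19.4 and 5.88 against 0.623, and Kcne2 and Kcnj13 lie below it.

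Of the genes that move potassium together with the channels, the sodium pump and the chloride cotransporters were listed as background. The sodium pump list had 0 higher and 7 lower of 9, among them the pump regulator Fxyd1 (-1.42, adjusted p = 6.22e-05), and its member with the highest level per kb, Atp1b1, had -0.13. The cation-chloride cotransporters had 2 higher and 2 lower of 5. Slc12a7 (0.95, adjusted p = 0.00369) was among the higher, and Slc12a2 (-0.72) and the neuronal Slc12a5 (-0.30) were lower. The HCN channels, cation channels of the same superfamily, had 0 higher and 2 lower of 4, with Hcn2 at -0.68 (adjusted p = 1.2e-05).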

How the data were processed

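TRAP and Input RNA of 3 animals was sequenced as directional poly(A) libraries. The authors aligned reads to mm10 with strand in Strand NGS and deposited expected counts per Ensembl gene, after dropping genes for which neither fraction had 20 reads or more throughout, together with log2 values that the authors had normalized with DESeq and centred on Input. Whether both mates of a pair were counted is not given in the sources used here. The deposited columns of the authors' own comparison hold fold changes and p-values and were not used.

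Expected counts were rounded and tested without pairing, the design in the study's methods, with the edgeR 4.0.16 quasi-likelihood test in R 4.3.3 (RLE size factors). A gene was kept if all libraries of either fraction exceeded 20 scaled reads, Benjamini-Hochberg adjustment ran over all genes kept, and calls needed an adjusted p under 0.05. Scaled reads are reads over the size factor of the library, and the SE comes from the F statistic. Alternatives used TMM, total count scaling, DESeq2 1.42.0, other filters, a replicate block, limma 3.58.1 on the deposited log2 values, and each library left out. The script was tested on simulated data.

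Same-numbered libraries come from the same animal and are paired. Their deviations from the group means correlated at 0.28, 0.07 and 0.17 for animals 201, 207 and 208. Nothing in the labels names separate cultures or batches, and reads carried no molecular identifiers. SD values are the spread between animals, while SE values come from the unpaired edgeR fit and do not measure the spread of paired ratios.

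Named were all called members, members in the study's marker lists or qPCR panel, the 2 highest per kb in Input of each family, and partner-list genes that passed or were highest in their list. Other members named (among them Kcnj16, Kcnt2, Kcnj8, Kcna3 and Kcnh5) were picked with their values known. The members and lists were chosen with earlier results of these data known. Marker lists came from the study's supplement or were written by hand, and the ribosomal-tagging list had 134 of 134 genes higher (median 4.17) and the microglial sorting list 234 higher and 1 lower of 238 (median 3.65). Gene positions are as deposited, and exon lengths are from GENCODE M21. A few named-gene results are left out of the text and of the fold change plot.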

Additional observations from a re-analysis of the deposited data

How the results depend on the processing

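All 28 called members kept their direction under the alternatives run. Of these, 15 were called in all 13, and Kcnn4 and Kcng4 in every setting that tested them, since the filter on the mean left them out. The counts of 8 higher and 20 lower members were 8 and 20 with TMM, 6 and 27 with total count scaling, 8 and 18 with DESeq2, 7 and 18 with limma, and 7 and 16 of 60 tested where the mean had to reach 100 scaled reads. With the animal as replicate block in a paired fit, 9 were higher and 26 lower, and all 28 calls were kept. Leaving out a library gave 6 to 9 higher and 13 to 24 lower members, with 13 lower without the Input library of animal 207. Over all genes, these leave-outs called 5539 to 7260 genes, against 7053 in the main fit. The member median stayed between -0.22 and -0.10 throughout. Calls were also lost with DESeq2 for Kcne1l (adjusted p = 0.0861), Kcnj14 (0.0523) and Kcnn1 (0.0535), and with limma for Kcnab1 (0.0766), Kcnc1 (0.0626) and Kcnk12 (0.0679). Signs turned in no called member, and every alternative drew on the libraries that had made the calls. Across leave-outs the ranges were -0.077 to 0.004 for Kcna2, -0.08 to 0.057 for Kcnb2, -0.166 to 0.007 for Kcnc4, -0.057 to 0.099 for Kcnd2, -0.106 to 0.117 for Kcnd3, -0.011 to 0.181 for Kcng1, -0.132 to 0.058 for Kcnip1, -0.059 to 0.147 for Kcnip3, -0.153 to 0.099 for Kcnq5 and -0.248 to 0.219 for Kcna3. They were also -0.615 to 0.229 for Kcnh4, positive without Input 201 alone, -0.033 to 0.402 for Kcnj12, -0.32 to 0.035 for Kcnk4, -0.059 to 0.205 for Kcns2, -0.198 to 0.132 for Kcnj6 and -0.143 to 0.008 for Kcnh1. With total count scaling, which moved the median of all genes to -0.09, the values were -0.034 for Kcnd2, -0.069 for Kcnd3, -0.055 for Kcnip3 and -0.033 for Kcna3. Kcnj6 had -0.075 with total count scaling, -0.016 with the replicate block and -0.036 with limma. Kcnd3 had -0.00061 with the replicate block and -0.02 with limma, and Kcna3 had -0.00026 with limma. The cause of these changes was not tested. Few reads per library stand behind Kcnn4, Kcne1l, Kcnj14, Kcnh5, Kcnj8 and Kcna3.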

Other observations

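Kcn rows that are not protein-coding numbered 2 in the table, and both were lower in Positive. Kcnq1ot1, the long antisense RNA of the imprinted Kcnq1 domain, known to act in the nucleus, had 838.5, 605.1 and 546.5 scaled reads in Input of animals 201, 207 and 208 and 458.3, 467.8 and 395.7 in Positive (log2 fold change -0.59 ± 0.15, SE, edgeR adjusted p = 0.00551). Kcnmb4os2, antisense to Kcnmb4, had 59.2, 105.2 and 80.8 in Input and 48.4, 29.8 and 28.0 in Positive (-1.21 ± 0.29, adjusted p = 0.00446). For both genes every Positive library was below every Input library.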
